A study of Mus musculus with 24 samples.

Results

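Antiviral interferon-stimulated genes are genes whose products block viral entry, copying or assembly, or sense viral nucleic acid, and which cells switch on when interferon binds its receptors. A fixed list of 38 such genes was followed in mouse B16 melanoma tumours, in 3 roles: 5 sensors, 20 effectors and 13 regulators. Each gene was read at its probeset (a set of array probes for 1 transcript) that the platform annotation assigns to that gene alone. All 38 had 1 such probeset, among 19938 genes tested. The genes are set by a list of names, which was drawn up with earlier results of these data known.

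Total RNA of the cells of tumours grown under the skin, brought into suspension, was measured on 24 arrays, with 4 biological replicates in each of 6 groups. Mice aged 6 to 12 weeks, of a strain not given in the sources used here, received 500000 B16 cells, a pigmented mouse melanoma line. The Mock and IL-12TD mice were irradiated over the whole body (5 Gy) 10 to 14 days after the tumour cells and were given 100000 CD8+ T cells from the pmel-1 line. Such T cells carry a receptor for a peptide of the melanocyte protein Pmel. In the Mock arm they were un-transduced, and in the IL-12TD arm they were transduced with interleukin 12 (IL-12), through a vector not given in the sources used here. The No treatment arm, called untreated here, received tumour cells, and its labels state neither irradiation nor T cells. Tumours of each arm were taken at day 3 or day 7, which for the treated arms counts from treatment. A single field of the Mock day 7 labels names 3 days, while the others name 7, and these arrays were placed at day 7. Whether a replicate was 1 mouse or a pool is not given in the sources used here. Compared with untreated tumours, the Mock arm differs in irradiation and T cells together, so the effects of these cannot be told apart. IL-12TD and Mock share both and differ in the IL-12 transduction. As the Mock T cells were un-transduced, the effects of transduction itself and of IL-12 cannot be told apart.

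Type I interferons (interferon alpha and beta) signal through Ifnar1 and Ifnar2 to a complex that holds Stat2 and Irf9 and binds the interferon-stimulated response element (ISRE) in promoters. Type II interferon (interferon gamma, the product of Ifng) signals through Ifngr1 and Ifngr2 and acts at the gamma-activated sequence (GAS), and it raises many of the same genes. IL-12 is known for inducing interferon gamma in T cells and natural killer cells. In tumours, the antiviral genes are expressed by tumour cells as well as by leukocytes and stroma, and a bulk measurement adds them together. With such bulk RNA, fewer cells of a type and less RNA per cell cannot be told apart.

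Levels are deposited log2 intensities, on which 1 unit is a doubling, and differences are given as log2 differences ± SE of a linear model (limma) fitted to all genes and arrays. A gene was called higher or lower at an adjusted p under 0.05, with Benjamini-Hochberg adjustment over all 19938 genes, and n = 4 arrays per group throughout. Array medians lay between 5.38 and 5.54. The interquartile range of the genes was 2.08 to 2.33 on the IL-12TD day 3 arrays and 2.66 to 2.87 on the Mock day 3 arrays, so the arrays were not all on a common distribution. The tumour label was met by the markers: the mean log2 level of 12 melanocyte genes was 9.97 to 10.19 on untreated day 3 arrays and 9.42 to 9.57 on IL-12TD day 3 arrays. Of the IL-12 chains, a check added after the values were seen, small differences were called for Il12a (day 3) and Il12b (day 7). The other day of each chain is not given singly. Over the chains the mean level was 4.40 ± 0.16 in Mock and 4.75 ± 0.20 in IL-12TD at day 3 (means ± SD). At day 7 it was 4.85 ± 0.08 and 5.16 ± 0.10. Il12a was 4.54 ± 0.06 in Mock and 4.93 ± 0.26 in IL-12TD at day 3 (means ± SD, adjusted p = 0.0183), and Il12b was 4.55 ± 0.18 and 4.99 ± 0.18 at day 7 (adjusted p = 0.0266). The labels give no batch or scan date, so day of sampling and processing batch cannot be told apart. The number of arrays limits the precision.

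Promoter sequences are shown because interferon acts on these genes through short promoter motifs. RefSeq (GRCm38.p6) gave promoter windows, from 250 bases before to 50 after the transcript start, for 28 of the 38 genes. The ISRE core was searched as GAAANNGAAA and the GAS core as TTCNNNGAA, each on both strands. ISRE letters were found in 12 of 28 member genes (42.9%), against 3.99% of 27025 genes with windows of the same length. GAS letters were found in 9 of 28 (32.1%), against 9.55% of genes. Bst2, Eif2ak2, Ifitm3 and Oas1a held both motifs, and 11 members held neither. A match is a description of letters and not a bound site. The 250 bases before the start are printed 5′ to 3′ on the strand of the gene, with ISRE matches in capitals, for the 4 members with the largest differences of IL-12TD from Mock among those with a window and for Trim25, whose larger difference of the 2 days was the smallest among them. Ifit1 and Rsad2 were added after their values were seen, as widely used reference genes of the interferon response. Windows were not found for Oas2, Dhx58, Tor3a, Mx2, Parp14, Parp9, Usp18, Zbp1, Mx1 and Rtp4.
Herc6: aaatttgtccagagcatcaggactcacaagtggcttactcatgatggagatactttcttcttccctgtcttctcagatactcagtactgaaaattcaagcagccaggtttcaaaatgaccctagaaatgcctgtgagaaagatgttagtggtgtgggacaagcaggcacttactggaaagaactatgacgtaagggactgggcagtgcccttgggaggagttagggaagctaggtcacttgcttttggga
Ifit3: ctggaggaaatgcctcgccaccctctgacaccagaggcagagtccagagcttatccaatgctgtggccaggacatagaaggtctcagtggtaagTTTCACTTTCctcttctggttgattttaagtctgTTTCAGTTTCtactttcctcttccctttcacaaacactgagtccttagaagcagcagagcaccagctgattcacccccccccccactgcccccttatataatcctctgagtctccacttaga
Samhd1: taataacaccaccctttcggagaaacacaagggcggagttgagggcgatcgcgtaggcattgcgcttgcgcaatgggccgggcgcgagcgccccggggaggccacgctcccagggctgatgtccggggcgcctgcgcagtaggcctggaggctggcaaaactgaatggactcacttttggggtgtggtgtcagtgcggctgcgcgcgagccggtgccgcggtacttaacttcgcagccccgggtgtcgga
Oas3: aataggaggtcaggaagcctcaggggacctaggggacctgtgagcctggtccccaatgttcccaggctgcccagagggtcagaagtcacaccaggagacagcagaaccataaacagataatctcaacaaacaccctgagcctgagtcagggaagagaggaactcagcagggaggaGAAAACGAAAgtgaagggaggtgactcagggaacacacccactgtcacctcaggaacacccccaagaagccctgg
Trim25: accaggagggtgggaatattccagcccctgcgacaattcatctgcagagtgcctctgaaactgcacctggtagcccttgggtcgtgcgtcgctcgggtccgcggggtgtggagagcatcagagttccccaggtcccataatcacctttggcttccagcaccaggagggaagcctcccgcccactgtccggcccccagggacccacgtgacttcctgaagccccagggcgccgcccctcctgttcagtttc
Ifit1: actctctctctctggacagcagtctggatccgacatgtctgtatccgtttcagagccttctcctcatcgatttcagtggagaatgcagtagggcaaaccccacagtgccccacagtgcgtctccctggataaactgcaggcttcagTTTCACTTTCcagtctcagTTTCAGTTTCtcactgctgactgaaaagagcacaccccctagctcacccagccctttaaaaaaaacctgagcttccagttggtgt
Rsad2: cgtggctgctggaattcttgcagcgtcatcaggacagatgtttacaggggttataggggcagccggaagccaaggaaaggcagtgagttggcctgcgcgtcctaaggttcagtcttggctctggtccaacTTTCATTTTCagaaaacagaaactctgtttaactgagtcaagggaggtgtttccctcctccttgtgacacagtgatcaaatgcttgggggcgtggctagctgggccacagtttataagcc

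In GRCm38.p6 these stretches are chr6:57580742-57580991, plus strand, for Herc6, chr19:34583279-34583528, plus strand, for Ifit3, chr2:157135097-157135346, minus strand, for Samhd1, and chr5:120777660-120777909, minus strand, for Oas3. The others are chr11:88999153-88999402, plus strand, for Trim25, chr19:34640639-34640888, plus strand, for Ifit1, and chr12:26456453-26456702, minus strand, for Rsad2. The 28 genes had 34 windows, and where a gene had several, the window with the lowest coordinate was printed. The Ifit3 stretch lies within the annotated gene span (chr19:34583119-34588982), and the Oas3 stretch overlaps its span (chr5:120753098-120777684). For these genes the stretch thus precedes an inner transcript start and not the outermost. Ifit3 and Ifit1 each held 2 ISRE matches, and Oas3 and Rsad2 each held 1. Herc6, Samhd1 and Trim25 held none, and Samhd1 held 1 GAS match within its window. Members with large differences were thus printed both with and without the ISRE letters.

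Tumours that had received IL-12TD cells carried more of the antiviral transcripts than Mock tumours at both days. At day 3, 35 of the 38 genes were called higher and 0 lower, where 17.3% of all genes tested were called higher. At day 7, all 38 were called higher, where 12.9% of all genes were. The median difference of the members was 1.25 at day 3 and 1.98 at day 7, and that of all genes tested was 0.02 and -0.08. Differences ran from 0.08 to 2.84 at day 3 and from 0.63 to 3.75 at day 7. All 4 IL-12TD arrays lay above all 4 Mock arrays for 32 members at day 3 and for 37 at day 7, as they did for 13.3% and 10.4% of all genes. At an unadjusted p under 0.05 the counts were 36 at day 3 and 38 at day 7, with none lower. The share of all genes at an unadjusted p under 0.05 was not computed, here or for the other comparisons.

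The mean level over the 38 genes was 6.68, 7.04, 6.91 and 7.28 on the untreated day 3 arrays in replicate order, 7.32, 6.77, 7.53 and 7.15 on Mock and 8.57, 8.53, 8.20 and 8.50 on IL-12TD arrays. On the day 7 arrays it was 6.23, 6.12, 6.36 and 6.35 in untreated, 7.10, 6.32, 6.69 and 6.25 in Mock and 8.75, 8.35, 8.68 and 8.70 in IL-12TD tumours. Untreated and Mock arrays overlapped at both days, and every IL-12TD array was above every other array of its day. IL-12TD day 3 replicate 3, IL-12TD day 7 replicate 2 and Mock day 3 replicate 2 were the lowest arrays of their groups, and Mock day 7 replicate 1 was the highest of its group. Without 3 of these together (Mock day 3 replicate 2 kept), 36 members were called higher at day 3 and 38 at day 7. Without all 4 together, 35 and 38 were called higher. Both settings were chosen after seeing the data. Without Mock day 3 replicate 2 alone, 32 were called higher at day 3.

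**Figure D1:**
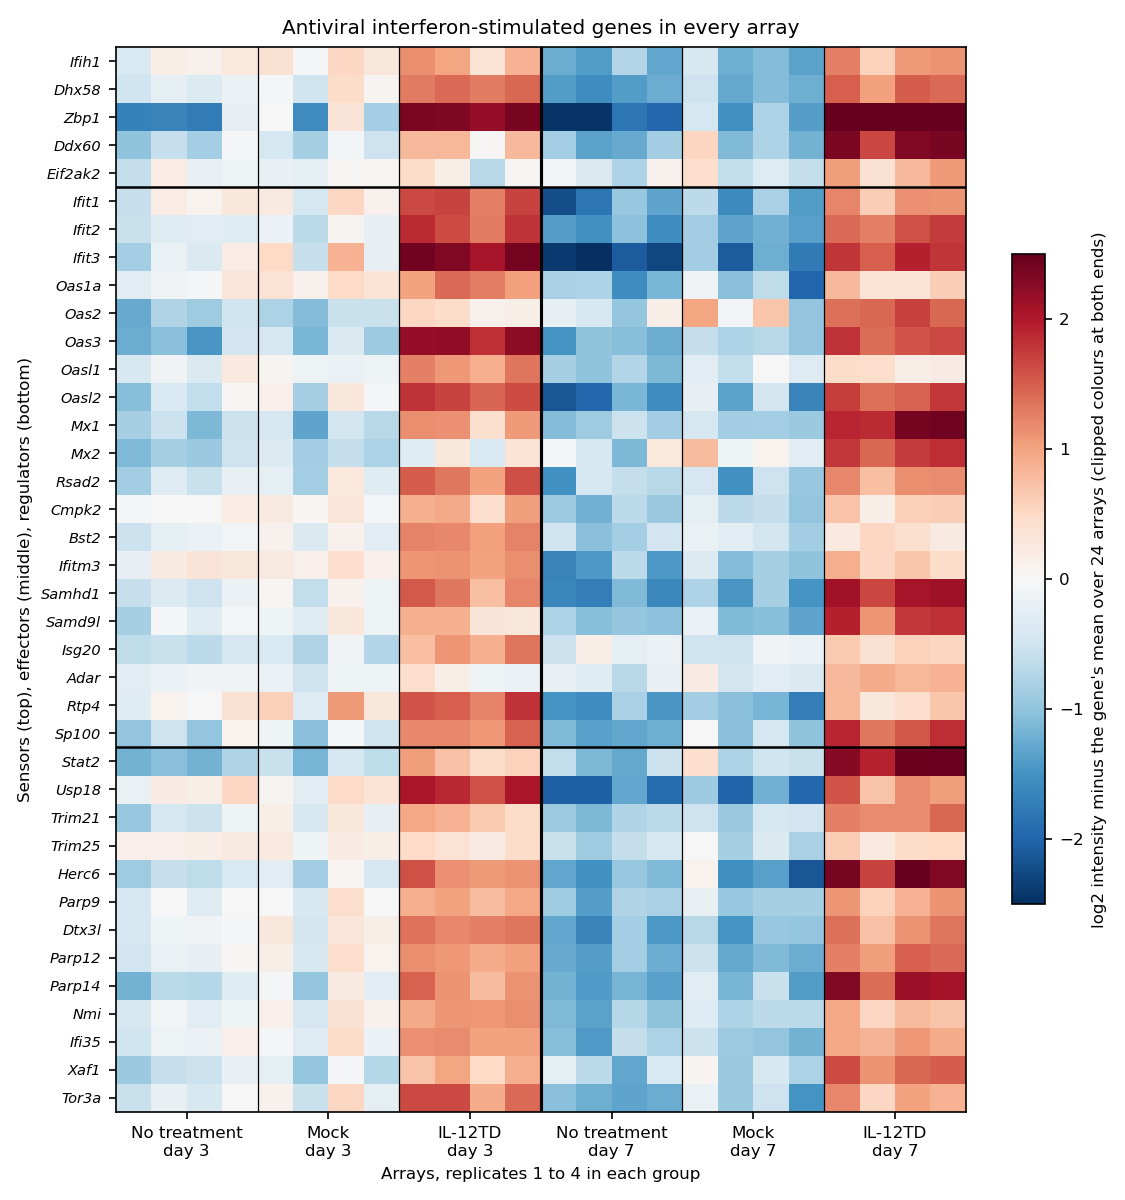
Colour map of the 38 antiviral genes (rows, in 3 blocks of sensors, effectors and regulators) on the 24 arrays (columns, 4 replicates in each of 6 groups). Colour gives the log2 intensity minus the gene's mean over all arrays, red above and blue below, clipped at both ends of the scale; the IL-12TD columns are red for nearly all genes while the untreated and Mock columns of day 7 are the bluest.

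Among the 5 sensors, 4 were called higher than Mock at day 3 and all 5 at day 7, with medians of 1.08 and 2.39. Zbp1, which senses nucleic acid in the left-handed Z form and can start necroptosis, had the largest difference of the 38 genes at each day. Zbp1 measured 5.97, 6.005, 5.92 and 7.45 in untreated, 7.67, 6.08, 7.99 and 6.81 in Mock and 10.02, 9.99, 9.86 and 10.02 in IL-12TD tumours at day 3. Zbp1 at day 7 measured 5.21, 5.22, 5.84 and 5.69 in untreated, 7.22, 6.15, 6.88 and 6.28 in Mock and 10.29, 10.42, 10.45 and 10.37 in IL-12TD tumours. The IL-12TD arrays were tightly grouped and above every other array at both days, while Mock and untreated overlapped at day 3 and were separate at day 7. Zbp1 was higher in IL-12TD than in Mock by 2.84 ± 0.32 at day 3 (adjusted p = 9.65e-08) and by 3.75 ± 0.32 at day 7 (adjusted p = 8.79e-10), which are 7.14-fold and 13.4-fold.

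Dhx58 encodes LGP2, a helicase that tunes the RNA sensors of the RIG-I family. Dhx58 measured 7.02, 7.29, 7.18 and 7.36 in untreated, 7.49, 7.02, 7.98 and 7.58 in Mock and 8.82, 8.94, 8.81 and 8.95 in IL-12TD tumours at day 3. Dhx58 at day 7 measured 6.11, 5.97, 6.12 and 6.26 in untreated, 6.997, 6.23, 6.42 and 6.30 in Mock and 9.004, 8.54, 9.02 and 8.94 in IL-12TD tumours. All IL-12TD arrays were above all others of their day, and the IL-12TD level was nearly the same at both days while Mock and untreated were lower at day 7. Dhx58 was higher in IL-12TD than in Mock by 1.36 ± 0.17 at day 3 (adjusted p = 4.21e-07) and by 2.39 ± 0.17 at day 7 (adjusted p = 2.46e-11). Ddx60 encodes a related helicase. Ddx60 measured 4.91, 5.32, 5.04 and 5.84 in untreated, 5.46, 5.06, 5.83 and 5.39 in Mock and 6.71, 6.73, 5.93 and 6.71 in IL-12TD tumours at day 3. Ddx60 at day 7 measured 5.06, 4.57, 4.64 and 5.03 in untreated, 6.45, 4.80, 5.12 and 4.72 in Mock and 8.26, 7.57, 8.21 and 8.28 in IL-12TD tumours. IL-12TD did not overlap the other arms at either day, although replicate 3 of day 3 was close to the highest Mock array. Ddx60 was higher in IL-12TD than in Mock by 1.08 ± 0.28 at day 3 (adjusted p = 0.00264) and by 2.81 ± 0.28 at day 7 (adjusted p = 1.41e-08).

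Ifih1 encodes MDA5, a cytosolic sensor of long double-stranded RNA. Ifih1 measured 6.89, 7.45, 7.39 and 7.53 in untreated, 7.65, 7.23, 7.79 and 7.55 in Mock and 8.43, 8.25, 7.61 and 8.14 in IL-12TD tumours at day 3. Ifih1 at day 7 measured 6.03, 5.87, 6.54 and 5.97 in untreated, 6.87, 6.06, 6.19 and 5.94 in Mock and 8.53, 7.85, 8.34 and 8.40 in IL-12TD tumours. IL-12TD overlapped Mock at day 3 and was above every other array at day 7. Ifih1 was higher in IL-12TD than in Mock by 0.55 ± 0.20 at day 3 (adjusted p = 0.0299) and by 2.02 ± 0.20 at day 7 (adjusted p = 2.16e-08). The day 3 call of Ifih1 ended when any of Mock replicates 2 and 4 or IL-12TD replicates 1, 2 and 4 was left out (difference 0.44 to 0.55, adjusted p = 0.0548 to 0.103).

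Eif2ak2 encodes PKR, a kinase that binds double-stranded RNA and halts translation by phosphorylating eIF2 alpha. Eif2ak2 measured 5.65, 6.44, 6.07 and 6.13 in untreated, 6.06, 6.01, 6.28 and 6.30 in Mock and 6.70, 6.41, 5.56 and 6.29 in IL-12TD tumours at day 3. Eif2ak2 at day 7 measured 6.19, 5.88, 5.48 and 6.36 in untreated, 6.68, 5.64, 5.93 and 5.67 in Mock and 7.31, 6.64, 7.07 and 7.32 in IL-12TD tumours. The arms overlapped at day 3, where the lowest of all arrays was an IL-12TD array. At day 7 it was the only member for which IL-12TD still overlapped Mock, through Mock replicate 1, although IL-12TD was above all untreated arrays. Eif2ak2 differed from Mock by 0.08 ± 0.23 at day 3, which was not called (adjusted p = 0.808), and was higher by 1.10 ± 0.23 at day 7 (adjusted p = 0.000957). The 95% confidence interval at day 3 ran from -0.40 to 0.55, so differences up to that upper bound are not excluded.

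Of the 20 effectors, 19 were called higher than Mock at day 3 and all 20 at day 7, with medians of 1.32 and 1.84. The oligoadenylate synthetases make short chains of adenylate that activate RNase L, which cuts viral and cellular RNA. Oas3 had the largest day 3 difference among the effectors. Oas3 measured 4.96, 5.14, 4.74 and 5.72 in untreated, 5.78, 5.04, 5.83 and 5.29 in Mock and 8.38, 8.41, 8.03 and 8.43 in IL-12TD tumours at day 3. Oas3 at day 7 measured 4.70, 5.18, 5.12 and 4.95 in untreated, 5.60, 5.42, 5.51 and 5.21 in Mock and 8.01, 7.58, 7.76 and 7.84 in IL-12TD tumours. The IL-12TD arrays were more than 1 unit above every other array at both days. Oas3 was higher in IL-12TD than in Mock by 2.83 ± 0.18 at day 3 (adjusted p = 4.68e-12) and by 2.36 ± 0.18 at day 7 (adjusted p = 1.54e-10), which are 7.1-fold and 5.14-fold.

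The neighbouring Oas genes had smaller differences than Oas3 at each day. Oas1a differed by 0.86 ± 0.24 (adjusted p = 0.00604) at day 3 and 1.46 ± 0.24 (adjusted p = 6.02e-05) at day 7. Oas2 differed by 1.05 ± 0.27 (adjusted p = 0.00318) and 1.33 ± 0.27 (adjusted p = 0.000729). Differences between probesets also reflect how each probeset responds, so their order is a description. Oas2 (chr5:120730333-120749886), Oas3 (chr5:120753098-120777684) and Oas1a (chr5:120896256-120907544) lie on the same chromosome in GRCm38, Oas2 and Oas3 next to each other. Oas1a and Sp100 also have a probeset shared with other genes, which was not used.

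The OAS-like genes lie on the same chromosome and behaved differently from each other. Oasl2 differed by 1.76 ± 0.27 (adjusted p = 1.05e-05) at day 3 and 2.50 ± 0.27 (adjusted p = 6.99e-08) at day 7. Oasl1, which is known to restrain translation of Irf7, had the smallest day 7 difference of the 38 genes. Oasl1 measured 6.61, 6.92, 6.66 and 7.26 in untreated, 7.08, 6.88, 6.84 and 6.88 in Mock and 8.28, 8.10, 7.91 and 8.35 in IL-12TD tumours at day 3. Oasl1 at day 7 measured 6.18, 6.01, 6.28 and 5.88 in untreated, 6.74, 6.39, 7.01 and 6.68 in Mock and 7.47, 7.45, 7.18 and 7.22 in IL-12TD tumours. No IL-12TD array overlapped another arm at either day, and at day 7 the 4 Mock arrays were above the 4 untreated arrays. Oasl1 was higher in IL-12TD than in Mock by 1.24 ± 0.15 at day 3 (adjusted p = 2.51e-07) and by 0.63 ± 0.15 at day 7 (adjusted p = 0.00252).

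The Ifit genes encode proteins with tetratricopeptide repeats that bind viral RNA and limit its translation, and they lie together on chromosome 19. Ifit3 had the largest difference of the 3 at both days. Ifit3 measured 7.76, 8.44, 8.25 and 8.80 in untreated, 9.11, 8.04, 9.47 and 8.41 in Mock and 11.02, 10.92, 10.67 and 11.001 in IL-12TD tumours at day 3. Ifit3 at day 7 measured 6.22, 5.70, 6.54 and 6.33 in untreated, 7.73, 6.54, 7.39 and 6.84 in Mock and 10.39, 10.10, 10.55 and 10.40 in IL-12TD tumours. The IL-12TD arrays were above all others at each day, and the untreated and Mock levels were lower at day 7 than at day 3, by 2.12 and 1.63. Ifit3 was higher in IL-12TD than in Mock by 2.14 ± 0.26 at day 3 (adjusted p = 3.79e-07) and by 3.24 ± 0.26 at day 7 (adjusted p = 3.73e-10). The promoter printed for Ifit3 is among those with ISRE matches.

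Ifit2 followed the same order of arms. Ifit2 measured 6.24, 6.50, 6.52 and 6.50 in untreated, 6.65, 6.14, 6.87 and 6.59 in Mock and 8.67, 8.43, 8.09 and 8.61 in IL-12TD tumours at day 3. Ifit2 at day 7 measured 5.42, 5.29, 5.78 and 5.23 in untreated, 5.93, 5.47, 5.61 and 5.43 in Mock and 8.21, 8.06, 8.40 and 8.54 in IL-12TD tumours. IL-12TD was separate from both other arms at each day, and Mock overlapped untreated. Ifit2 was higher in IL-12TD than in Mock by 1.89 ± 0.16 at day 3 (adjusted p = 9.42e-10) and by 2.69 ± 0.16 at day 7 (adjusted p = 1.40e-12). Ifit1, which recognises RNA lacking the cap methylation of the host, differed by 1.47 ± 0.24 (adjusted p = 3.18e-05) at day 3 and 2.14 ± 0.24 (adjusted p = 1.95e-07) at day 7.

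Mx1 and Mx2 encode dynamin-like GTPases that trap viral components, and most inbred mouse strains carry a disrupted Mx1 gene, so its transcript does not show a working protein. Mx1 measured 4.53, 4.82, 4.24 and 4.81 in untreated, 4.91, 4.05, 4.90 and 4.66 in Mock and 6.52, 6.51, 5.76 and 6.42 in IL-12TD tumours at day 3. Mx1 at day 7 measured 4.28, 4.46, 4.81 and 4.49 in untreated, 4.93, 4.49, 4.50 and 4.44 in Mock and 7.26, 7.21, 7.76 and 7.77 in IL-12TD tumours. IL-12TD was above the other arms at both days, and neither Mock nor untreated was called to change from day 3 to day 7. Mx1 was higher in IL-12TD than in Mock by 1.67 ± 0.20 at day 3 (adjusted p = 2.33e-07) and by 2.91 ± 0.20 at day 7 (adjusted p = 1.42e-11). Mx2 differed by 0.64 ± 0.23 (adjusted p = 0.0299) at day 3 and 1.57 ± 0.23 (adjusted p = 1.25e-05) at day 7, and IL-12TD overlapped Mock at day 3. The day 3 call of Mx2 ended without Mock replicate 2 or 4 or IL-12TD replicate 2 or 4 (difference 0.52 to 0.59, adjusted p = 0.0759 to 0.0968) and after a second quantile normalization (adjusted p = 0.155).

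Samhd1, a phosphohydrolase that drains the pool of DNA building blocks used by retroviruses, was among the effectors with the largest day 7 differences. Samhd1 measured 7.53, 7.76, 7.59 and 7.96 in untreated, 8.15, 7.48, 8.21 and 7.97 in Mock and 9.63, 9.43, 8.84 and 9.31 in IL-12TD tumours at day 3. Samhd1 at day 7 measured 6.47, 6.36, 6.99 and 6.48 in untreated, 7.34, 6.64, 7.27 and 6.61 in Mock and 10.19, 9.76, 10.16 and 10.23 in IL-12TD tumours. The IL-12TD arrays were above all others at each day and higher at day 7 than at day 3, whereas both other arms were lower at day 7. Samhd1 was higher in IL-12TD than in Mock by 1.35 ± 0.19 at day 3 (adjusted p = 3.88e-06) and by 3.12 ± 0.19 at day 7 (adjusted p = 2.57e-12).

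Samd9l restricts poxviruses and slows cell growth. Samd9l measured 6.17, 6.96, 6.70 and 6.94 in untreated, 6.89, 6.70, 7.28 and 6.87 in Mock and 7.88, 7.88, 7.32 and 7.28 in IL-12TD tumours at day 3. Samd9l at day 7 measured 6.20, 5.93, 6.04 and 5.97 in untreated, 6.83, 5.90, 5.93 and 5.69 in Mock and 8.95, 8.11, 8.76 and 8.83 in IL-12TD tumours. At day 3 IL-12TD replicates 3 and 4 were at the level of the highest Mock array, and at day 7 no array overlapped. Samd9l was higher in IL-12TD than in Mock by 0.66 ± 0.22 at day 3 (adjusted p = 0.017) and by 2.57 ± 0.22 at day 7 (adjusted p = 9.14e-10). The day 3 call ended when Mock replicate 2, IL-12TD replicate 1 or IL-12TD replicate 2 was left out (difference 0.56 to 0.58, adjusted p = 0.0529 to 0.0577).

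Adar, which edits adenosine to inosine in double-stranded RNA and so marks it as self, was the effector not called at day 3. Adar measured 6.97, 7.08, 7.16 and 7.17 in untreated, 7.08, 6.73, 7.12 and 7.13 in Mock and 7.69, 7.39, 7.15 and 7.10 in IL-12TD tumours at day 3. Adar at day 7 measured 7.05, 6.94, 6.55 and 7.06 in untreated, 7.46, 6.79, 6.99 and 6.89 in Mock and 8.07, 8.17, 8.09 and 8.12 in IL-12TD tumours. The arms overlapped at day 3 and IL-12TD was above all others at day 7. Adar differed from Mock by 0.32 ± 0.15 at day 3, which was not called (adjusted p = 0.0829), and was higher by 1.08 ± 0.15 at day 7 (adjusted p = 3.33e-06). At day 3 the call of Adar was made without IL-12TD day 3 replicate 4 (difference 0.39, adjusted p = 0.0476) and after a second quantile normalization (difference 0.58).

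Isg20, an exonuclease that degrades viral RNA, went the other way between the days. Isg20 measured 7.58, 7.64, 7.56 and 7.79 in untreated, 7.83, 7.45, 8.13 and 7.48 in Mock and 8.96, 9.32, 9.09 and 9.54 in IL-12TD tumours at day 3. Isg20 at day 7 measured 7.67, 8.38, 7.97 and 8.07 in untreated, 7.70, 7.70, 8.13 and 8.04 in Mock and 8.86, 8.59, 8.79 and 8.75 in IL-12TD tumours. IL-12TD was above every other array at both days, with the 2 other arms overlapping. Isg20 was higher in IL-12TD than in Mock by 1.51 ± 0.16 at day 3 (adjusted p = 3.71e-08) and by 0.86 ± 0.16 at day 7 (adjusted p = 0.000228). Bst2, the tetherin that holds budding virus on the cell surface and is also a marker of plasmacytoid dendritic cells, had the same order, with differences of 1.28 ± 0.16 (adjusted p = 3.76e-07) at day 3 and 0.78 ± 0.16 (adjusted p = 0.000504) at day 7.

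The remaining effectors were called higher at both days. Rsad2, the viperin enzyme that makes a chain-terminating nucleotide, differed by 1.64 ± 0.24 and 1.92 ± 0.24. Cmpk2, a nucleotide kinase that lies next to Rsad2 on chromosome 12, differed by 0.69 ± 0.15 and 1.14 ± 0.15. Ifitm3, which blocks fusion of viral and host membranes, differed by 0.88 ± 0.18 and 1.47 ± 0.18. Sp100, a component of nuclear bodies that silence viral DNA, differed by 1.66 ± 0.23 and 2.28 ± 0.23. Rtp4 differed by 1.13 ± 0.23 and 1.76 ± 0.23. The highest adjusted p among these 5 was 0.000859.

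**Figure D2:**
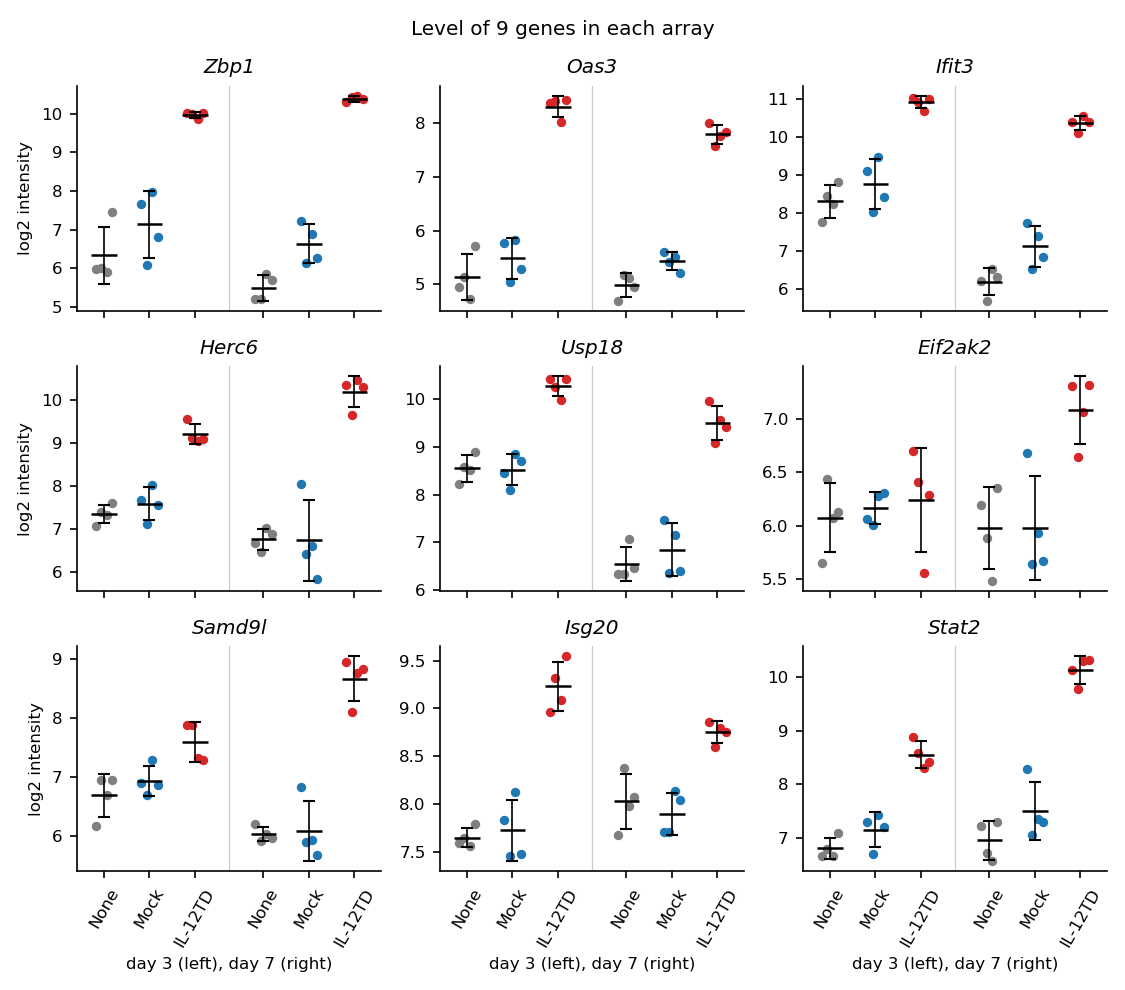
Log2 intensity (vertical axes) of 9 antiviral genes on each array, with untreated in grey, Mock in blue and IL-12TD in red, day 3 on the left and day 7 on the right of each panel; bars are group means ± SD, n = 4. IL-12TD arrays sit above the other arms at both days except for Eif2ak2 and Samd9l, where they overlap at day 3, and Eif2ak2 through 1 Mock array at day 7.

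Of the 13 regulators, 12 were called higher than Mock at day 3 and all 13 at day 7, with medians of 1.22 and 1.94. Usp18, which removes the ubiquitin-like protein Isg15 and dampens signalling at the type I receptor, led at day 3. Usp18 measured 8.21, 8.57, 8.51 and 8.89 in untreated, 8.45, 8.09, 8.85 and 8.71 in Mock and 10.42, 10.25, 9.97 and 10.41 in IL-12TD tumours at day 3. Usp18 at day 7 measured 6.33, 6.33, 7.08 and 6.46 in untreated, 7.46, 6.37, 7.16 and 6.40 in Mock and 9.95, 9.08, 9.56 and 9.42 in IL-12TD tumours. The IL-12TD arrays were above all others at each day. Untreated and Mock tumours lost more than 1 unit by day 7, and IL-12TD less. Usp18 was higher in IL-12TD than in Mock by 1.74 ± 0.23 at day 3 (adjusted p = 1.07e-06) and by 2.65 ± 0.23 at day 7 (adjusted p = 1.00e-09).

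Herc6, the main ligase that attaches Isg15 in mouse cells, led at day 7. Herc6 measured 7.09, 7.41, 7.34 and 7.61 in untreated, 7.69, 7.12, 8.03 and 7.56 in Mock and 9.57, 9.13, 9.05 and 9.11 in IL-12TD tumours at day 3. Herc6 at day 7 measured 6.69, 6.47, 7.03 and 6.89 in untreated, 8.06, 6.44, 6.62 and 5.85 in Mock and 10.36, 9.67, 10.46 and 10.30 in IL-12TD tumours. IL-12TD was above every other array at both days, and the 4 Mock arrays of day 7 were widely spread. Herc6 was higher in IL-12TD than in Mock by 1.61 ± 0.28 at day 3 (adjusted p = 5.89e-05) and by 3.45 ± 0.28 at day 7 (adjusted p = 5.24e-10), which are 3.06-fold and 10.9-fold. Its printed promoter held no ISRE letters.

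Tor3a, an ATPase of the torsin family that responds to interferon, was among the regulators with the largest differences at day 3 and kept a similar difference at day 7. Tor3a measured 6.52, 6.90, 6.68 and 7.07 in untreated, 7.19, 6.54, 7.60 and 6.86 in Mock and 8.73, 8.73, 8.01 and 8.50 in IL-12TD tumours at day 3. Tor3a at day 7 measured 6.05, 5.86, 5.76 and 5.85 in untreated, 6.93, 6.16, 6.56 and 5.60 in Mock and 8.29, 7.60, 8.10 and 7.96 in IL-12TD tumours. IL-12TD did not overlap the other arms at either day. Tor3a was higher in IL-12TD than in Mock by 1.44 ± 0.23 at day 3 (adjusted p = 1.54e-05) and by 1.67 ± 0.23 at day 7 (adjusted p = 3.15e-06).

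Parp14, Parp9 and Dtx3l lie side by side on chromosome 16 and encode ADP-ribosyltransferases and the ubiquitin ligase that pairs with Parp9. Parp14 measured 5.68, 6.19, 6.16 and 6.56 in untreated, 6.83, 5.89, 7.08 and 6.59 in Mock and 8.34, 7.99, 7.66 and 7.99 in IL-12TD tumours at day 3. Parp14 at day 7 measured 5.68, 5.45, 5.71 and 5.51 in untreated, 6.57, 5.71, 6.31 and 5.47 in Mock and 9.18, 8.27, 9.02 and 8.95 in IL-12TD tumours. IL-12TD was separate from the other arms at both days. Parp14 was higher in IL-12TD than in Mock by 1.40 ± 0.24 at day 3 (adjusted p = 4.68e-05) and by 2.84 ± 0.24 at day 7 (adjusted p = 9.14e-10).

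Parp9 lies head to head with Dtx3l. Parp9 measured 6.57, 6.99, 6.67 and 6.98 in untreated, 6.99, 6.59, 7.42 and 6.98 in Mock and 7.88, 7.99, 7.76 and 7.95 in IL-12TD tumours at day 3. Parp9 at day 7 measured 6.09, 5.61, 6.23 and 6.17 in untreated, 6.80, 6.05, 6.15 and 6.16 in Mock and 8.10, 7.56, 7.85 and 8.12 in IL-12TD tumours. The arms were separate for IL-12TD and overlapping for Mock and untreated. Parp9 was higher in IL-12TD than in Mock by 0.90 ± 0.18 at day 3 (adjusted p = 0.000206) and by 1.62 ± 0.18 at day 7 (adjusted p = 8.67e-08). Dtx3l, whose annotated span overlaps that of Parp9, differed by 1.22 ± 0.18 (adjusted p = 8.67e-06) and 2.17 ± 0.18 (adjusted p = 9.25e-10). Signal from the overlap cannot be assigned to 1 of the pair from these files.

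Trim25, the ubiquitin ligase that activates RIG-I, was the regulator not called at day 3. Trim25 measured 7.94, 7.93, 7.98 and 8.03 in untreated, 8.06, 7.72, 8.02 and 7.97 in Mock and 8.28, 8.18, 8.01 and 8.28 in IL-12TD tumours at day 3. Trim25 at day 7 measured 7.25, 6.92, 7.22 and 7.41 in untreated, 7.81, 6.98, 7.45 and 7.01 in Mock and 8.45, 8.07, 8.27 and 8.30 in IL-12TD tumours. All 3 arms overlapped at day 3 and IL-12TD was above the others at day 7. Trim25 differed from Mock by 0.25 ± 0.15 at day 3, which was not called (adjusted p = 0.178), and was higher by 0.96 ± 0.15 at day 7 (adjusted p = 1.98e-05). At day 3 the call of Trim25 was made after a second quantile normalization (difference 0.48).

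Stat2, the type I signal transducer, differed by 1.39 ± 0.21 (adjusted p = 1.04e-05) at day 3 and 2.63 ± 0.21 (adjusted p = 4.19e-10) at day 7. Trim21, a ligase that recognises antibody-coated virus, differed by 0.78 ± 0.17 and 1.85 ± 0.17. Parp12, an ADP-ribosyltransferase that limits translation of viral RNA, differed by 0.98 ± 0.17 and 2.34 ± 0.17. Nmi and Ifi35 encode partner proteins that bind each other. Nmi differed by 1.03 ± 0.15 and 1.35 ± 0.15, and Ifi35 by 1.09 ± 0.17 and 1.87 ± 0.17. Xaf1, a partner of the apoptosis inhibitor XIAP, differed by 1.27 ± 0.22 and 1.94 ± 0.22. These 6 genes were called higher at both days, with a highest adjusted p of 0.000535.

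**Figure D3:**
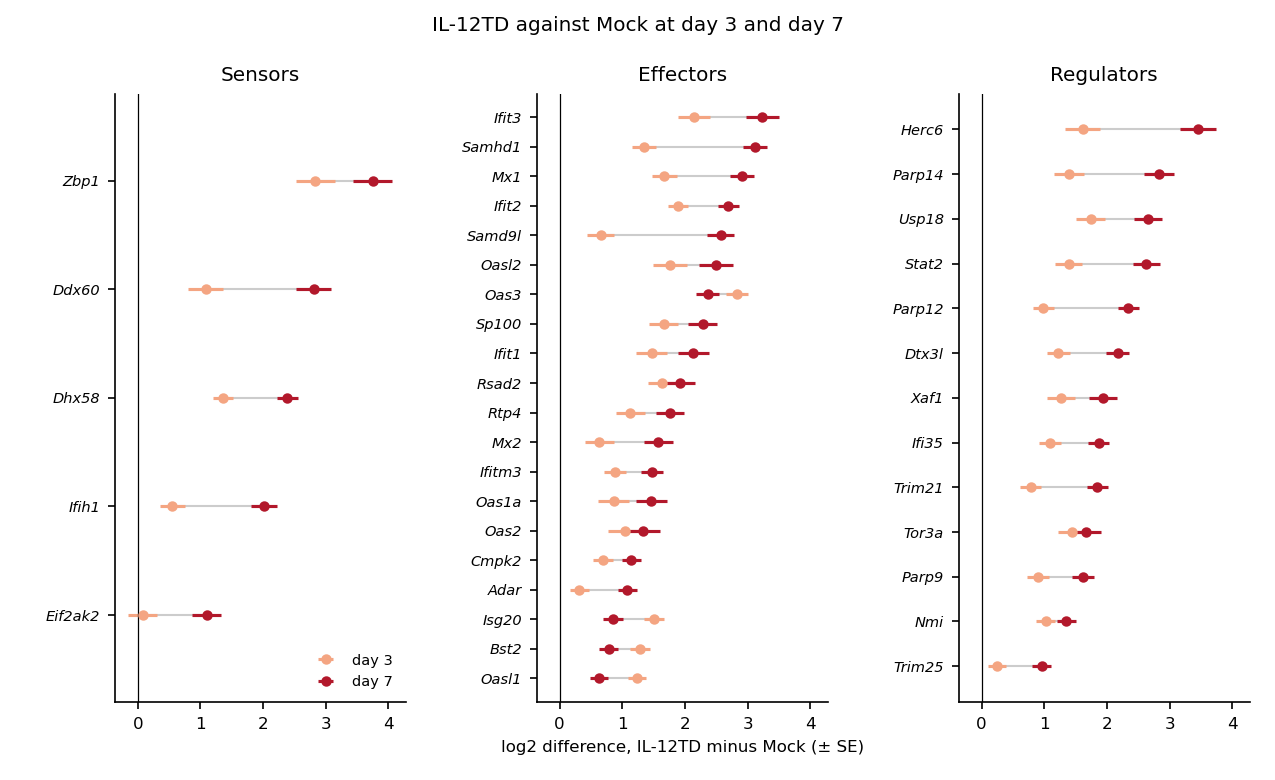
Log2 difference of IL-12TD minus Mock (horizontal axis, ± SE) for each antiviral gene, with day 3 in orange and day 7 in dark red joined by a grey line, in panels for sensors, effectors and regulators, ordered by the day 7 difference. The day 7 point lies to the right for 34 of the 38 genes and to the left for Oas3, Isg20, Bst2 and Oasl1.

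Mock tumours and untreated tumours were then compared, to see how far irradiation and un-transduced T cells alone moved the antiviral genes. In limma, 0 of 38 members were called at either day, where 0.0% of all genes tested were called at either day. Member differences were small and mostly positive, with medians of 0.20 at day 3 and 0.29 at day 7, beside 0.00 and 0.03 for all genes tested. At each day 35 of the 38 were above 0. At an unadjusted p under 0.05 there were 2 members at day 3 (Zbp1 and Trim21) and 10 at day 7, all higher in Mock. The share of all genes at that threshold was not computed, so these counts are not read as particular to the members. Zbp1 had the largest difference, 0.80 ± 0.32 (adjusted p = 1.00) at day 3 and 1.14 ± 0.32 (adjusted p = 0.214) at day 7. At day 7, Ifit3 followed with 0.93 ± 0.26 (adjusted p = 0.214), and the lowest adjusted p was that of Oasl1, 0.62 ± 0.15 (adjusted p = 0.162). All 4 Mock arrays exceeded all 4 untreated arrays for 4 members at day 7 (Zbp1, Oas3, Oasl1 and Sp100) and for 0 at day 3, as for 4.58% and 0.627% of all genes. The highest 95% confidence bound of a member was 1.45 at day 3 and 1.79 at day 7, so these arrays do not show that Mock and untreated tumours were alike. For 0 of 38 members did limma call the Mock effect to change between the days, where 0.0% of all genes were called, and 1 member had an unadjusted p under 0.05.

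Set against untreated tumours in place of Mock, and sharing the IL-12TD arrays with the comparison above, 35 members were called higher at day 3 (16.1% of all genes) and 38 at day 7 (11.8% of all genes). The medians were 1.45 and 2.15. For Zbp1 the differences were 3.64 ± 0.32 and 4.89 ± 0.32. For Ifit3 they were 2.59 ± 0.26 and 4.16 ± 0.26. All IL-12TD arrays exceeded all untreated arrays for 35 members at day 3 and for 38 at day 7, as for 11.8% and 11.4% of all genes.

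Between day 3 and day 7 most antiviral genes declined in the untreated and Mock arms. In untreated tumours 24 of the 38 fell and 0 rose (2 were higher at an unadjusted p under 0.05), where 24.2% of all genes tested were called lower and 11.3% higher, with a member median of -0.78 beside -0.01 for all genes. In Mock tumours 24 fell and 2 rose, where 27.1% of all genes were called lower and 23.8% higher, with a member median of -0.68 beside 0.08. In IL-12TD tumours 8 fell and 13 rose, where 21.6% of all genes were called lower and 20.2% higher, with a member median of 0.00 beside -0.05. The count that fell was 5 when IL-12TD day 3 replicate 2 or 4 or IL-12TD day 7 replicate 2 or 3 was left out, and with only the compared groups it was 12, beside 15 that rose. After centring each array on its median the split in IL-12TD tumours was 13 lower and 13 higher, where 28.9% of all genes were lower and 16.9% higher. In Mock it was 17 lower and 4 higher after a second quantile normalization, where 19.1% of all genes were lower and 17.3% higher. In untreated tumours that normalization ended the calls of Bst2, Samd9l, Sp100 and Zbp1. It called Isg20 (0.69, adjusted p = 0.00402) and Oas2 (0.75, adjusted p = 0.0411) higher there, where 14.5% of all genes were lower and 12.5% higher. With array weights Isg20, Mx2 and Oas2 were called higher in untreated tumours, and Herc6 and Parp14 were added to those called lower. There were 20 members that fell in both untreated and Mock tumours. The share of all genes that fell in both was not computed, so the count is not read as particular to the members. Removing dim genes (kept above the 40th percentile on at least 4 arrays) left 13424 genes, with all 38 members. Of those genes, 36.6% fell in untreated (median -0.16), 40.3% in Mock (-0.16) and 22.8% in IL-12TD tumours (0.04). The interquartile range was 2.57 to 2.88 on untreated day 3 and 2.29 to 2.53 on day 7 arrays. On Mock arrays it was 2.66 to 2.87 and 2.15 to 2.38, and on IL-12TD arrays 2.08 to 2.33 and 2.31 to 2.53. Its part in the falls was not tested.

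Usp18 and Ifit3 fell most in the untreated and Mock arms. Usp18 changed by -1.999 ± 0.23 (adjusted p = 5.17e-07) in untreated, -1.67 ± 0.23 (adjusted p = 1.32e-06) in Mock and -0.76 ± 0.23 (adjusted p = 0.00795) in IL-12TD tumours. Ifit3 changed by -2.12 ± 0.26 (adjusted p = 1.37e-06), -1.63 ± 0.26 (adjusted p = 1.14e-05) and -0.54 ± 0.26 (adjusted p = 0.0964) in the same order. Samhd1 and Samd9l fell in both other arms and rose with IL-12TD, Samhd1 by 0.78 ± 0.19 (adjusted p = 0.00178) and Samd9l by 1.07 ± 0.22 (adjusted p = 0.000268). The fall of Samd9l in untreated tumours, -0.66 ± 0.22 (adjusted p = 0.019), was not called without untreated day 3 replicate 2 or 4 or day 7 replicate 2 (difference -0.62 to -0.57, adjusted p = 0.0514 to 0.0699). The largest rises in IL-12TD tumours were those of Mx2 (1.71 ± 0.23 (adjusted p = 1.97e-06)), Stat2 (1.58 ± 0.21 (adjusted p = 1.60e-06)) and Ddx60 (1.56 ± 0.28 (adjusted p = 5.51e-05)). In Mock the members called higher at day 7 were Oas2 (0.90 ± 0.27 (adjusted p = 0.00798)) and Mx2 (0.77 ± 0.23 (adjusted p = 0.00785)). After a second quantile normalization Mx2 was not called in Mock (adjusted p = 0.088), while Adar, Stat2 and Isg20 were called higher there. Oas2 was not called in Mock without the 3 arrays (adjusted p = 0.0553), and neither Oas2 nor Mx2 was without the 4 arrays.

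Whether the difference of IL-12TD from Mock itself changed between the days was tested as an interaction. It was larger at day 7 for 21 members and smaller for 2, where 24.1% of all genes tested were called larger and 18.4% smaller. The median change was 0.77 for the members and -0.06 for all genes, and 34 of 38 were above 0. By role, 4 of 5 sensors, 7 of 20 effectors and 10 of 13 regulators were called larger. Among the 13424 genes left after removal of dim genes, 35.8% were called larger and 12.4% smaller, with a median change of 0.26. The share of effectors called larger was near that share. The largest changes were those of Samd9l (1.92 ± 0.31 (adjusted p = 6.61e-05)), Herc6 (1.84 ± 0.40 (adjusted p = 0.000979)), Samhd1 (1.77 ± 0.27 (adjusted p = 4.64e-05)) and Ddx60 (1.72 ± 0.39 (adjusted p = 0.0014)). The members called smaller at day 7 were Isg20 (-0.65 ± 0.22 (adjusted p = 0.0222)) and Oasl1 (-0.61 ± 0.21 (adjusted p = 0.0201)). The smallest changes called larger were those of Parp9 (0.71 ± 0.25 (adjusted p = 0.0243)), Trim25 (0.71 ± 0.21 (adjusted p = 0.00856)), Adar (0.77 ± 0.21 (adjusted p = 0.00544)) and Ifi35 (0.78 ± 0.24 (adjusted p = 0.0127)). Zbp1, with the largest difference at each day, was not called to change (0.91 ± 0.45 (adjusted p = 0.098)), but was called larger at day 7 without Mock day 3 replicate 2 or Mock day 7 replicate 1 (change 1.11 to 1.27, adjusted p = 0.0156 to 0.0444).

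Among the 21 genes, the change called within an arm was a rise with IL-12TD for some and a fall in Mock for others. With 5 genes (Samhd1, Samd9l, Trim21, Herc6 and Parp14) IL-12TD rose and Mock fell. In 5 more (Ddx60, Eif2ak2, Mx1, Adar and Stat2) IL-12TD rose and Mock was not called. For 9 (Ifih1, Dhx58, Ifit2, Ifit3, Trim25, Parp9, Dtx3l, Parp12 and Ifi35) Mock fell and IL-12TD was not called. Mx2 rose in both arms and Usp18 fell in both. The calls behind this grouping were made separately in each arm, and several did not hold. A gene not called in an arm was not shown to be unchanged there. Ifit3 changed by -0.54 with IL-12TD, called lower with the compared groups only (adjusted p = 0.00492). After median centring its change was -0.63, also called lower (adjusted p = 0.0483). The fall of Parp14 in Mock was not called without any 1 of 5 Mock arrays (day 3 replicates 1, 3 and 4 and day 7 replicates 2 and 4, change -0.59 to -0.40, adjusted p = 0.0741 to 0.182), nor with all probesets, the compared groups only, a trended robust prior or a second quantile normalization. The fall of Herc6 in Mock was not called without Mock day 3 replicate 3 or Mock day 7 replicate 4 (change -0.71 to -0.56, adjusted p = 0.0581 to 0.0914). After a second quantile normalization the falls of Herc6, Trim21 and Trim25 in Mock were not called. The rise of Trim21 with IL-12TD was not called without replicate 4 of day 3 or of day 7 (change 0.42 to 0.46, adjusted p = 0.0502 to 0.0598). Ddx60 was called lower in Mock at day 7 without Mock day 7 replicate 1, and Eif2ak2 without the 4 arrays. Isg20 and Oasl1 fell with IL-12TD and were not called in Mock. The fall of Isg20 with IL-12TD was not called without IL-12TD day 3 replicate 4 (change -0.37, adjusted p = 0.0744) or after a second quantile normalization.

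Some interaction calls rested on single arrays or on the scaling. After a second quantile normalization 14 members were called larger and 3 smaller, where 12.9% of all genes were called larger and 12.1% smaller, and Adar, Eif2ak2, Ifi35, Ifit3, Parp9, Trim25 and Usp18 were no longer called (adjusted p from 0.0589 to 0.215). Ifit3 lost its call when replicate 3 of Mock day 3 or replicate 2 of Mock day 7 was left out (change 0.86 to 0.90, adjusted p = 0.0538 to 0.0557). Parp9 lost it without replicate 3 of Mock day 3, replicate 2 of Mock day 7, or replicates 1 or 4 of IL-12TD day 7 (change 0.57 to 0.65, adjusted p = 0.054 to 0.0658). Mx2 lost it without replicate 1 of Mock day 3, replicate 3 of IL-12TD day 3, or replicates 2 or 4 of Mock day 7 (change 0.81 to 0.86, adjusted p = 0.0529 to 0.0607). Usp18 lost it without any of replicates 3 and 4 of Mock day 3, 3 of IL-12TD day 3, 2 and 4 of Mock day 7, and 1 of IL-12TD day 7 (change 0.75 to 0.85, adjusted p = 0.0506 to 0.0652). Isg20 lost it without replicates 2 or 4 of Mock day 3, replicate 4 of IL-12TD day 3, or replicate 3 of Mock day 7 (change -0.57 to -0.55, adjusted p = 0.0515 to 0.0553), and Oasl1 without Mock day 7 replicate 3 (change -0.51, adjusted p = 0.0551). The other 17 members called in the interaction kept their call with each array of the compared groups left out in turn. With 1 array left out, 10 members that were not called became so in at least 1 case: Bst2, called smaller, and Cmpk2, Ifit1, Ifitm3, Oas1a, Oasl2, Rtp4, Sp100, Xaf1 and Zbp1, called larger. Without the 4 arrays together 31 were called larger and 1 smaller.

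**Figure D4:**
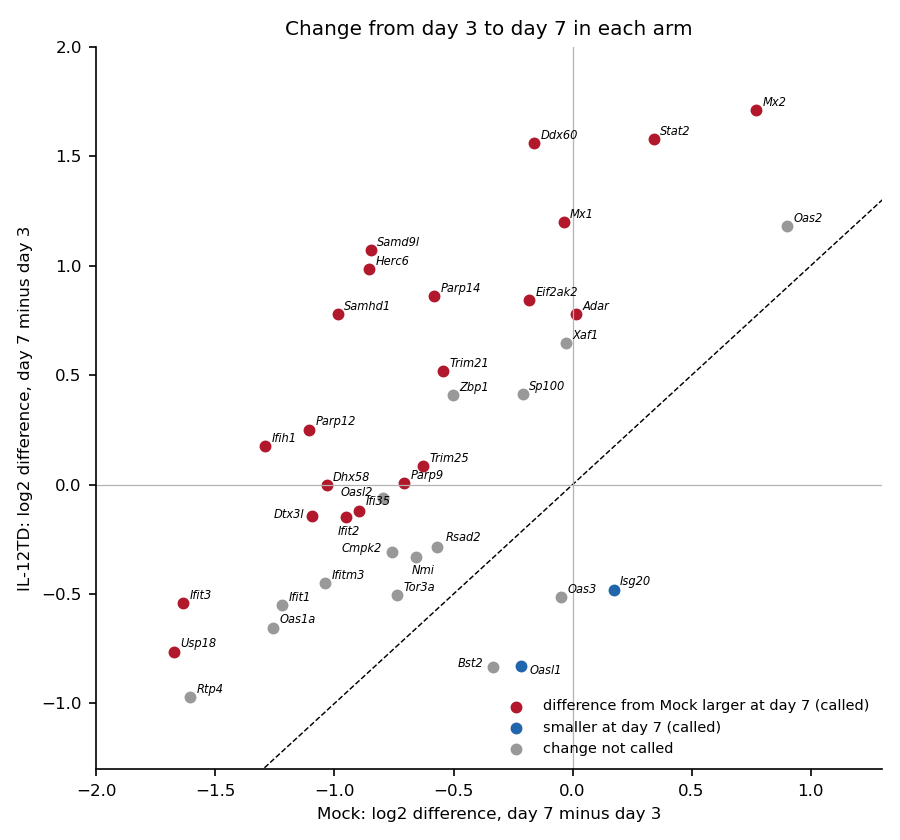
Log2 change from day 3 to day 7 in Mock (horizontal axis) and in IL-12TD tumours (vertical axis) for the 38 antiviral genes; the dashed line marks equal change. The 34 genes above the line have a larger difference from Mock at day 7, 21 of them called (red); the 2 called smaller, Isg20 and Oasl1, are blue, and genes not called are grey.

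The rest of the interferon pathway was read from lists of its ligands and receptors, signalling proteins, sensing adaptors and further target genes, chosen by role. Of all genes tested, 17.3% were called higher and 25.9% lower in IL-12TD than in Mock at day 3, and 12.9% higher and 8.83% lower at day 7, and the counts of each list are to be read beside these shares. Of 21 measured ligands and receptors, 8 were called higher and 5 lower in IL-12TD than in Mock at day 3, and 3 higher and 1 lower at day 7; the lower count at day 3 and the higher count at day 7 are near the shares of all genes. Ifng was 6.02 ± 0.97 in Mock and 11.74 ± 0.14 in IL-12TD at day 3 (means ± SD of log2 levels), a difference of 5.72 ± 0.28 (adjusted p = 4.60e-14). At day 7 the Ifng levels were 4.55 ± 0.45 and 9.43 ± 0.12, and the difference was 4.88 ± 0.28 (adjusted p = 1.09e-12). Ifnb1, interferon beta, was near the low end of the scale in each arm, 3.55 ± 0.04 and 3.85 ± 0.27 at day 3, and differed by 0.29 ± 0.15 (adjusted p = 0.106) at day 3 and -0.21 ± 0.15 (adjusted p = 0.306) at day 7. Low array levels do not show that a transcript was absent.

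The receptor chains were read in the same way. Ifngr1 of the gamma receptor was higher by 0.81 ± 0.15 (adjusted p = 0.000161) at day 3 and 1.52 ± 0.15 (adjusted p = 2.61e-08) at day 7. Ifnar1 was lower at day 3, with a difference of -0.36 ± 0.13 (adjusted p = 0.0242) and differed by 0.06 ± 0.13 at day 7 (adjusted p = 0.767). Ifnar2 was higher by 0.61 ± 0.16 (adjusted p = 0.0031) and 0.72 ± 0.16 (adjusted p = 0.00158). Ifnk, interferon kappa, was higher by 0.71 ± 0.15 at day 3 (adjusted p = 0.00053) and differed by -0.11 ± 0.15 at day 7 (adjusted p = 0.62).

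Of 15 measured signalling genes, 9 were called higher and 2 lower at day 3, and 13 higher and 0 lower at day 7. The interferon regulatory factors led them. Irf1, an early target of interferon gamma, was higher by 2.35 ± 0.26 (adjusted p = 6.92e-08) and 3.87 ± 0.26 (adjusted p = 9.48e-12). Irf8, a factor of myeloid and lymphoid cells, was higher by 2.35 ± 0.23 (adjusted p = 8.22e-09) and 3.52 ± 0.23 (adjusted p = 4.82e-12). Irf7, which drives interferon alpha genes, was higher by 1.80 ± 0.22 (adjusted p = 3.08e-07) and 2.27 ± 0.22 (adjusted p = 7.17e-09). Irf9 was not called at day 3 (0.21 ± 0.15, adjusted p = 0.259) and was higher by 0.68 ± 0.15 at day 7 (adjusted p = 0.00167). Ptpn6, a phosphatase of leukocytes, was higher by 1.45 ± 0.11 at day 7 (adjusted p = 1.08e-10). Isg15 had no probeset assigned to it alone and was not analysed here.

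Among 13 adaptors and other sensors of nucleic acid, 4 were called higher and 1 lower at day 3, and 7 higher and 0 lower at day 7. Mavs, the mitochondrial adaptor through which Ifih1 signals, was the lower gene at day 3, with a difference of -1.05 ± 0.17 (adjusted p = 1.87e-05), and differed by -0.03 ± 0.17 at day 7 (adjusted p = 0.908). Aim2, a sensor of cytosolic DNA, was higher by 1.21 ± 0.18 (adjusted p = 5.19e-06) and 1.27 ± 0.18 (adjusted p = 4.45e-06). Myd88, the adaptor of Toll-like receptors, was higher by 0.64 ± 0.16 (adjusted p = 0.00166) and 1.06 ± 0.16 (adjusted p = 9.84e-06). Sting1, the adaptor for cyclic dinucleotides, was higher by 1.20 ± 0.20 at day 7 (adjusted p = 8.26e-05).

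Most of the other interferon target genes were called higher. Of 29 further antiviral genes, 20 were called higher and 0 lower at day 3 (median 0.78), and 26 higher and 0 lower at day 7 (median 1.29). Ifitm1 was higher by 3.28 ± 0.16 (adjusted p = 4.60e-14) and 1.88 ± 0.16 (adjusted p = 1.22e-09). Epsti1 and Phf11d were higher at day 3 by 1.79 ± 0.15 (adjusted p = 1.11e-09) and 3.12 ± 0.28 (adjusted p = 3.05e-09). Apobec3, a cytidine deaminase against retroviruses, and Parp11 were higher at day 7 by 2.16 ± 0.18 (adjusted p = 9.25e-10) and 2.12 ± 0.18 (adjusted p = 1.16e-09). The GTPases known for their response to interferon gamma had medians of 2.66 and 3.87, and all 9 measured were called higher at each day. Of these, Gbp11 was higher by 3.56 ± 0.29 (adjusted p = 5.54e-10) and 5.78 ± 0.29 (adjusted p = 1.04e-13), Gbp8 by 3.06 ± 0.27 (adjusted p = 2.67e-09) and 5.38 ± 0.27 (adjusted p = 1.04e-13), and Gbp5 by 2.66 ± 0.24 (adjusted p = 2.40e-09) and 3.87 ± 0.24 (adjusted p = 2.57e-12).

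Markers of several cell types moved with the antiviral genes. All 14 markers found on most leukocytes, such as Ptprc (CD45), were called higher in IL-12TD than in Mock at each day, with medians of 1.66 and 1.66. Their mean level was 6.53 to 6.95 on Mock and 8.15 to 8.56 on IL-12TD arrays at day 3. At day 7 it was 6.05 to 6.77 on Mock and 7.68 to 8.20 on IL-12TD arrays, without overlap at either day. Between the days, 1 of the 14 leukocyte markers had a larger and 1 a smaller difference from Mock. Of all genes tested, 24.1% were called larger and 18.4% smaller. The median change of the leukocyte markers was 0.00, beside 0.77 for the antiviral genes. Within each arm the leukocyte mean was lower at day 7. It went from 6.64 ± 0.70 to 5.575 ± 0.39 in untreated, 6.77 ± 0.17 to 6.33 ± 0.32 in Mock and 8.40 ± 0.17 to 7.96 ± 0.24 in IL-12TD tumours (means ± SD). The antiviral mean went from 6.98 to 6.27, 7.19 to 6.59 and 8.45 to 8.62 in the same order. The part of leukocyte content in the antiviral levels was not tested.

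Beside the shares of all genes called at day 3 (17.3% higher, 25.9% lower) and at day 7 (12.9% higher, 8.83% lower), the markers of single cell types differed in their counts. Of 14 T cell markers, 12 were called higher at day 3 and 10 at day 7, with mean levels of 4.42 to 4.76 on Mock and 6.56 to 6.79 on IL-12TD arrays at day 3. Macrophage and monocyte markers were higher for 4 of 14 at day 3 and 8 of 14 at day 7, with mean levels at day 7 of 5.56 to 6.12 and 6.23 to 6.84. Neutrophil markers were higher for 10 of 12 at day 3 and, near the share of all genes, 1 of 12 at day 7, with day 3 mean levels of 4.16 to 4.35 and 5.70 to 6.71. Natural killer cell markers were higher for 4 of 7 at each day, and B cell markers for 4 of 7 at day 3 and 0 of 7 at day 7, where 1 was lower. Conventional dendritic cell markers were higher for 3 of 10 and lower for 1 at day 3, and lower for 2 of 10 at day 7. The part of these cells in the antiviral levels was not tested.

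Plasmacytoid dendritic cells, known as strong producers of type I interferon, had 1 of 8 markers called higher and 1 lower at day 3, and 2 higher and 0 lower at day 7. The mean level of these markers was 5.01 to 5.18 on Mock and 4.95 to 5.35 on IL-12TD arrays at day 3, and 5.05 to 5.11 and 5.09 to 5.32 at day 7. Siglech, a defining marker of these cells, differed by 0.26 ± 0.17 (adjusted p = 0.234) and -0.14 ± 0.17 (adjusted p = 0.583). Melanocyte markers were lower for 8 of 12 at day 3, where 25.9% of all genes were lower, and for 1 of 12 at day 7, where 8.83% were, with mean levels of 10.02 to 10.06 on Mock and 9.42 to 9.57 on IL-12TD arrays at day 3 and 9.29 to 10.32 and 9.54 to 10.03 at day 7. Of endothelial markers 1 of 10 was higher and 4 were lower at day 3, and 1 higher and 2 lower at day 7, to be read beside the same shares. Fibroblast markers were higher for 2 of 10 and lower for 2 at day 3, and higher for 3 and lower for 1 at day 7. Erythroid markers were higher for 1 of 6 and lower for 1 at day 3, and lower for 4 of 6 at day 7. The part of any of these cells in the antiviral levels was not tested.

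**Figure D5:**
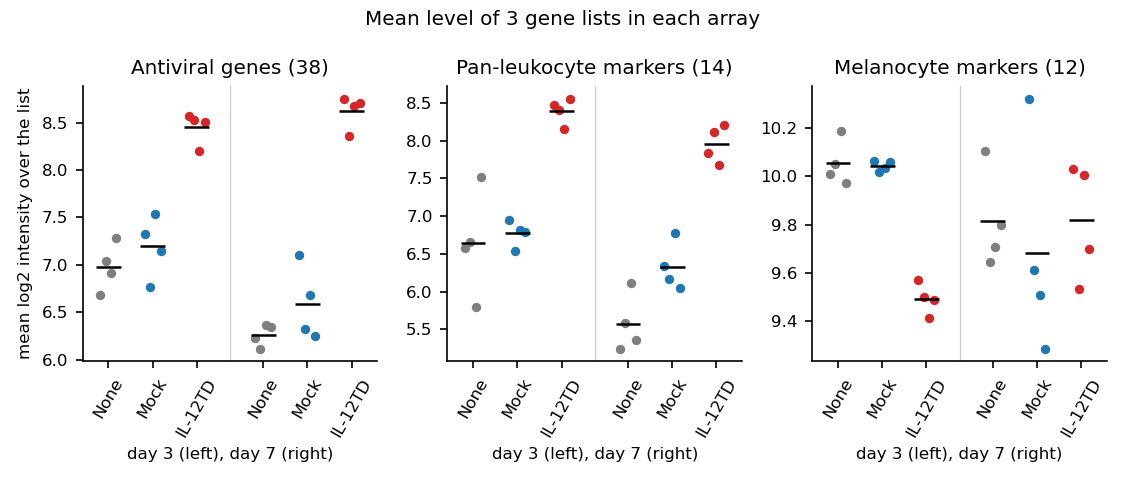
Mean log2 intensity over the 38 antiviral genes, 14 pan-leukocyte markers and 12 melanocyte markers on each array (points; bars are group means, n = 4), with untreated in grey, Mock in blue and IL-12TD in red. The antiviral and the leukocyte means are higher on every IL-12TD array than on every Mock array of the same day, and the melanocyte mean is lower on the IL-12TD arrays at day 3 and overlaps at day 7.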

How the data were processed

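RNA of 24 tumour samples was put on Affymetrix arrays. The authors deposited 1 log2 value per probeset and array; the submitters' processing notes name RMA, with no version, as the method. Joint normalization of the 24 arrays is not stated in the sources used here. The log2 unit was read from the deposited values, 1.009 to 14.367. Of 35556 probesets, 21789 list a single gene, 1621 several and 12146 none. The brightest single-gene probeset per gene was kept, which gave 19938 genes. The members and the gene lists were chosen with earlier results of these data known. Groups came from titles, source names and characteristics. No pair of arrays was identical.

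The test was limma 3.58.1 (R 4.3.3): lmFit with 6 group means over all 24 arrays, contrasts.fit and eBayes, two-sided, adjusted by Benjamini-Hochberg over all genes, called under 0.05. The model was also run on simulated data with independent noise for each gene and array, a setting without shifts shared by the genes of an array. The outcome of that run is not given here. Values of every array were given for members with the 3 largest differences of IL-12TD from Mock per role and day, members not called, and the 4 largest and 4 smallest called interactions. For Mock against untreated the rule asked for called changes, and there were 0. Ifih1 was added after its values were seen. For each pathway list the 3 genes with the smallest adjusted p per day are named, and Ifng, Ifnb1, Ifnar1, Ifnar2, Irf7 and Irf9 in any case. List genes without a single-gene probeset, among them Isg15, were not analysed here. Lists are described by counts and medians, without a test. Alternatives were a second quantile normalization, median centring, removal of dim genes (kept above the 40th percentile on at least 4 arrays, 13424 genes), a trended robust prior, array weights, the compared groups only, a replicate block, mean probesets, all probesets, and each array left out. Leaving out 3 or 4 arrays together was chosen after seeing the data. Motifs were searched in RefSeq windows of GRCm38.p6. Tables and plots used Python 3.11.15, pandas 2.3.3 and matplotlib 3.10.9.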

Additional observations from a re-analysis of the deposited data

Results flagged for a closer look

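In each group of 4 arrays, the array farthest from the others was screened for every member by the size of its gap relative to the range of the group. Of 228 sets of 4 arrays, 20 held such an array, and chance gives about 1 in 20 sets. IL-12TD day 7 replicate 2 was low in 5 members, with log2 levels of 8.54 for Dhx58, 7.57 for Ddx60, 8.54 for Ifit1, 9.27 for Rsad2 and 9.76 for Samhd1. IL-12TD day 3 replicate 3 was low in 4, at 5.93 for Ddx60, 9.19 for Ifit1, 8.03 for Oas3 and 5.76 for Mx1. Replicate 1 of the same group was high for Herc6 (9.57).

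Among Mock arrays, day 7 replicate 1 was high for Mx1 (4.93) and Parp9 (6.80), and day 7 replicate 2 was low for Trim21 (5.53). At day 3, replicate 1 was high for Oasl1 (7.08) and replicate 2 low for Adar (6.73). Among untreated arrays of day 3, replicate 1 was low for Ifit2 (6.24), Ifitm3 (10.70) and Dtx3l (6.57), and replicate 4 was high for Zbp1 (7.45). At day 7, untreated replicate 3 was high for Rtp4 (6.42). Without untreated day 3 replicate 4, the fall of Zbp1 in untreated tumours was -0.48 in place of -0.85 and was not called (adjusted p = 0.219). No array left out alone ended a call of IL-12TD against Mock for the members with such an array.

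The difference of IL-12TD from Mock, tested as an interaction with day in limma, changed between day 3 and day 7 for 23 members. Among sensors it grew by 1.72 ± 0.39 for Ddx60, 1.46 ± 0.29 for Ifih1, 1.03 ± 0.23 for Dhx58 and 1.03 ± 0.33 for Eif2ak2. Among effectors it grew by 1.92 ± 0.31 for Samd9l, 1.77 ± 0.27 for Samhd1, 1.24 ± 0.28 for Mx1, 1.09 ± 0.37 for Ifit3, 0.94 ± 0.33 for Mx2, 0.80 ± 0.23 for Ifit2 and 0.77 ± 0.21 for Adar. The effectors that went the other way were Isg20, with a change of -0.65 ± 0.22, and Oasl1, with -0.61 ± 0.21. Among regulators it grew by 1.84 ± 0.40 for Herc6, 1.44 ± 0.34 for Parp14, 1.36 ± 0.24 for Parp12, 1.24 ± 0.30 for Stat2 and 1.06 ± 0.24 for Trim21. Smaller changes were 0.95 ± 0.26 for Dtx3l, 0.91 ± 0.32 for Usp18, 0.78 ± 0.24 for Ifi35, 0.71 ± 0.21 for Trim25 and 0.71 ± 0.25 for Parp9.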

How the results depend on the processing

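All 38 day 7 calls of IL-12TD against Mock and against untreated were made in each alternative run. The day 3 count against Mock was 33 with all probesets and 35 or 36 elsewhere, and 32 to 35 with 1 array left out. Against untreated it was 35 to 37 at day 3. Mock against untreated gave 0 calls at each day in every setting but 1, which gave 1 at day 7 (Oasl1, 0.61, adjusted p = 0.0472) with the 3 arrays left out together. The interaction count was 17 to 32 over settings (32 without the 4 arrays) and 19 to 30 with 1 array left out, 30 without Mock day 7 replicate 1. Counts of change by day were 20 to 26 in untreated, 21 to 28 in Mock and 17 to 20 in IL-12TD tumours with 1 array left out. Median centring moved the IL-12TD split to 13 lower and 13 higher, and quantile normalization the Mock split to 17 lower and 4 higher. In untreated tumours quantile normalization called Isg20 and Oas2 higher. No called value changed sign.

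The labels do not state that replicate numbers pair samples across arms. Of 60 pairs with the same number, 18 had deviations correlated above 0.1 (mean r 0.0111, -0.277 to 0.524). Of 180 pairs with different numbers, 42 did (mean r -0.00412, -0.551 to 0.311). These figures do not settle whether samples were paired. With the replicate block 35 members were called higher at day 3, 38 at day 7, and 23 in the interaction, and 25 fell in untreated tumours against 24 without it. Precision is limited by 4 arrays per group, and Eif2ak2, Adar and Trim25 were not called at day 3.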
